A study of Mus musculus with 6 samples.

Results

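The S100 genes described here were S100a8, S100a9, S100a4, S100a6, S100a10 and S100a11, chosen by their symbols, and they make up 6 of the 32285 genes in the count matrices. The cells were bone marrow cells held back on CD11b magnetic beads, taken from C57Bl/6 mice aged 2 months, and one 10x Genomics 3′ library was made from each of 3 femur and 3 mandible samples. No treatment was given and no allele was altered in either group. The femur samples (marrow of femurs and tibiae, according to the protocol) came from 1 female and 2 males, and the mandible samples, flushed after the molars had been extracted, came from males. How many mice gave a sample was not stated in the sources used here, so p-values measure the spread between these samples, which may in part be technical. The metadata table deposited by the authors assigned 69776 kept cells to 9 clusters, called a cell cycle phase for each cell, and gave each cell a label by its likeness to the ImmGen reference of sorted mouse immune cells.

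S100 proteins are small calcium-binding proteins with paired EF-hand motifs, and most work as dimers. S100A8 and S100A9 join as calprotectin, which fills the cytosol of neutrophils, withholds zinc and manganese from microbes, and signals through Toll-like receptor 4 and the receptor for advanced glycation end products once released. The others act mostly inside the cell. S100A4 binds non-muscle myosin and is known from motile cells, S100A6 binds calcyclin-binding protein, and S100A10 and S100A11 bind annexin A2 and annexin A1 at membranes.

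All 6 genes lie on chromosome 3 of the mouse build mm10, in 2 groups. S100a4 (90603771 to 90606045), S100a6 (90612882 to 90624181) and S100a8 (90668978 to 90670035) stand on the plus strand, and S100a9 (90692632 to 90695721) stands on the minus strand, so that S100a8 and S100a9 point toward each other across 22596 bases with no annotated gene between. S100a11 (93520488 to 93526287) and S100a10 (93555080 to 93564643), both on the plus strand, form a pair 28792 bases apart that starts 2824766 bases beyond S100a9, with 60 annotated genes between. The annotated gene Gm42674 overlaps S100a4, and whether the counting used strand was not stated in the sources used here. Whether reads of Gm42674 were counted for S100a4 was not tested.

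The 250 bases before the start site are shown for the calprotectin pair, the most counted members, and for S100a4, the member whose level in the cluster of the monocyte-labelled cells stood highest over that in cluster 0. Sequences are from RefSeq (GRCm38.p6), written along the strand of the gene, and S100a10 is not in that table. The RefSeq start site of S100a8 lies 93 bases downstream of the gene start given above, so its window reaches into that annotation, whereas those of S100a9 and S100a4 lie within 1 base of it. Capitals mark matches, on either strand, to 3 short patterns. The first is TTNNGNAA, the core of a C/EBP site. The second is GAGGAA, the core of a PU.1 site. The third is the TATA box, spelled TATAAA. In the S100a8 window the match to the second nearest the start site adjoins the third.
S100a8, chr3:90668821-90669070, plus strand: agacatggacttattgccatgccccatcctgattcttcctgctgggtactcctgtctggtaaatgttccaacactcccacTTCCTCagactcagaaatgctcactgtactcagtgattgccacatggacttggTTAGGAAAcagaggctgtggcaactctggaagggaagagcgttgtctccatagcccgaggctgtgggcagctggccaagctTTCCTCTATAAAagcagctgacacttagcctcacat
S100a9, chr3:90695722-90695971, minus strand: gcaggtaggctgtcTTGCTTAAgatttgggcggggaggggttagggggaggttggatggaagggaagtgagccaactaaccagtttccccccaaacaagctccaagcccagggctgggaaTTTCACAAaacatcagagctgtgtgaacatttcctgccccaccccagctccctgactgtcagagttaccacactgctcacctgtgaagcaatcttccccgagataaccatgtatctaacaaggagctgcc
S100a4, chr3:90603520-90603769, plus strand: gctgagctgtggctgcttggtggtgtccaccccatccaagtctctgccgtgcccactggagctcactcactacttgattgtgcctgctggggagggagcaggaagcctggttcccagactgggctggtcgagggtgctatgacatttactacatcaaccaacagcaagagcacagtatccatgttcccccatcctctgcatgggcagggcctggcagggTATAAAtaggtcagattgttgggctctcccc

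Counted from the start site, the S100a8 window held the first pattern at -117, the second at -170 and -36 and the third at -30. The S100a9 window held the first pattern at -236 and -130 and neither of the others. In the S100a4 window only the third pattern was found, at -31. The S100a11 window, not shown, held the second pattern at -153, and the S100a6 window held none of the 3. Of 32536 mouse promoters of the same length, 36.8% held the first pattern, 23.4% the second and 12.3% the third, and a match of letters does not show a bound site.

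The libraries held 82962160 to 244946998 UMIs in 7763 to 22797 kept cells, with femur replicate 3 the largest. Barcodes shared with another library made up 1.21% to 1.70% of the kept cells of a library. The 12 neutrophil markers summed to between 61363 and 82754 CPM (UMIs per 1000000 UMIs of the summed cells) over all cells of a library, against 993.5 to 1497 CPM for the 7 monocyte markers, although the series describes its cells as monocytes. Itgam, which encodes CD11b itself, was detected in all 9 clusters at means of 197.8 CPM in cluster 6 to 1082 CPM in cluster 0. All 12 neutrophil markers were detected in clusters 0 to 4 and 7, and in cluster 5 they summed to 17898, 18122 and 41933 CPM in the femur replicates and 19962, 26415 and 28035 CPM in the mandible replicates beside monocyte marker sums of 3192 to 5139 CPM. Cluster 5 (7354 cells), which held the monocyte-labelled cells, was mixed, with 3734 cells labelled monocyte, 2529 neutrophil, 482 macrophage and 174 dendritic cell (DC). Cluster 6 (1009 cells) carried the B lineage markers at 7887 to 14532 CPM, and cluster 8 (274 cells) carried 5 erythroid markers at 31968 to 244909 CPM.

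S100a9 and S100a8 were the first and second most counted genes of the whole data set and also of cluster 5. S100a6 and S100a11 ranked 15 and 16 among the 26364 genes with a UMI, whereas S100a4 ranked 993 and S100a10 ranked 2656. Within cluster 5 the ranks of S100a4 and S100a10 were 115 and 366. UMIs at the 3′ end were not scaled by length, so ranks and CPM order counted molecules. Together S100a8 and S100a9 took 23.7%, 21.7% and 30.3% of all UMIs in the femur replicates and 24.7%, 27.2% and 24.3% in the mandible replicates. The sites overlapped, with 25.2% ± 4.48 (SD, n = 3) in the femur and 25.4% ± 1.56 (SD, n = 3) in the mandible, and a 2-sided exact permutation test gave p = 1.0, where the smallest p that 3 against 3 samples allow is 0.1. With each cluster given equal weight in every library the shares were 20.5% ± 3.95 and 21.7% ± 1.68 (SD, n = 3 each, exact permutation p = 0.6). In sums over all cells, fewer cells of a type and less RNA per cell cannot be told apart. All other CPM are shares of totals that include this pair.

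The calprotectin genes were highest in neutrophil clusters 0, 3 and 4. The S100a8 level averaged 147125 ± 15521 CPM (SD over 6 libraries) in cluster 0, 144077 CPM in cluster 4, 138193 CPM in cluster 3, 115189 CPM in cluster 2 and 87887 CPM in cluster 1. Clusters 0, 4 and 3 differed by less than the SD of the libraries, while cluster 3 lay above cluster 2 in 6 of 6 libraries. Cluster 5 averaged 40722 ± 17518 CPM and cluster 6 averaged 27796 CPM, and these 2 also differed by less than the SD, with cluster 5 higher in 5 of 6 libraries. In cluster 6, 138 neutrophil-labelled cells had a median of 16.2% of their UMIs from the pair, while the 858 B-labelled cells held S100a8 at 1459 to 4200 CPM. S100a9 followed the same outline, from 165479 CPM in cluster 0 and 165399 CPM in cluster 3 to 106954 CPM in cluster 1, 44867 CPM in cluster 5 and 31719 CPM in cluster 6. Across the 54 sums of 9 clusters and 6 libraries the log2 levels of S100a8 and S100a9 had r = 0.99, a description only, since the sums share libraries and totals. These values describe clusters that were themselves made from the genes of these cells, so no test was made between clusters.

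**Figure D1:**
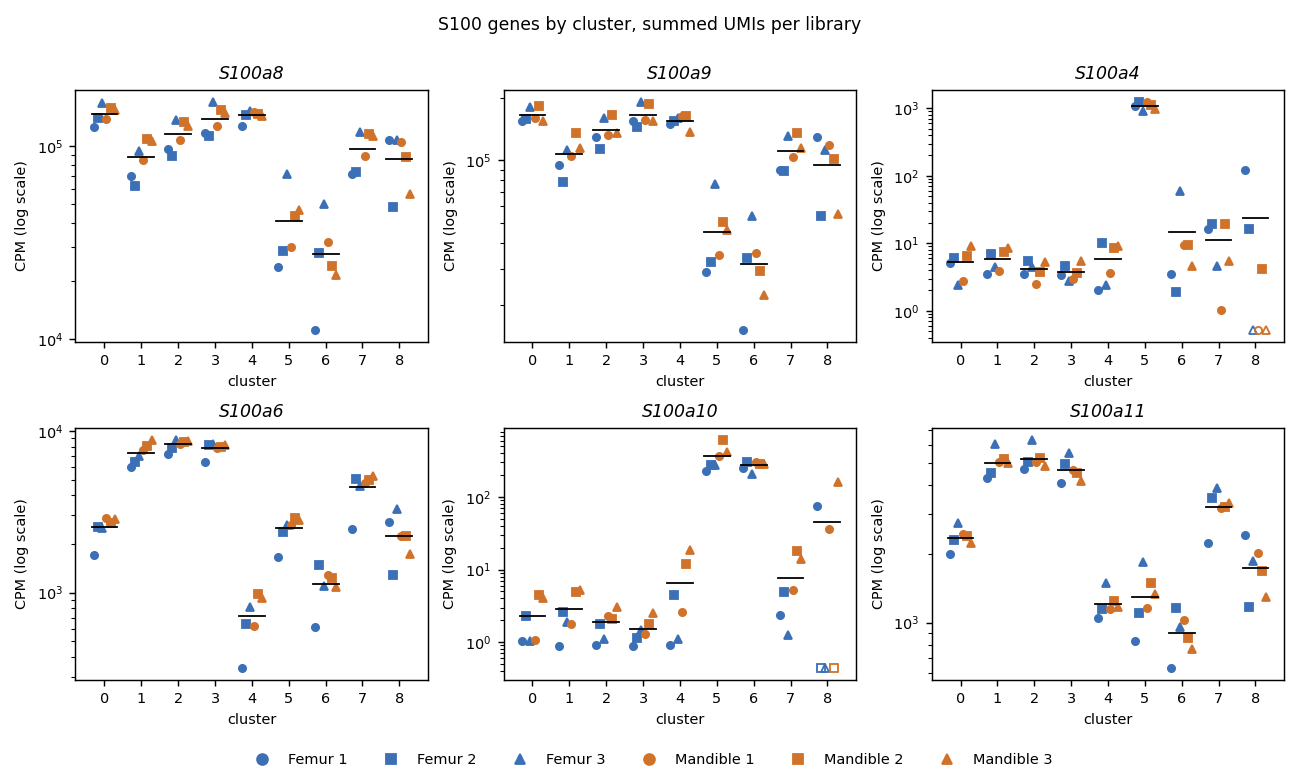
Level of each S100 gene (CPM, log axis) in the 9 clusters; each point is 1 library (blue femur, orange mandible), open points mark 0 UMIs and are drawn at an arbitrary low height, and bars are means over 6 libraries. S100a8 and S100a9 were lowest on average in clusters 5 and 6, S100a4 stood near 1097 CPM in cluster 5 against 3.80 to 5.92 CPM on average in clusters 0 to 4, S100a10 was high in clusters 5 and 6, and S100a6 and S100a11 were highest in clusters 1, 2 and 3.

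The ratio of S100a9 UMIs to S100a8 UMIs belonged more to the library than to the cluster. Over all cells it was 1.25, 1.16 and 1.09 in femur replicates 1 to 3 and 1.17, 1.17 and 1.01 in mandible replicates 1 to 3. Across the 9 clusters it stayed between 1.18 and 1.36 in femur replicate 1, the library with the highest ratio in each cluster, and between 0.96 and 1.08 in mandible replicate 3, which had the lowest. Clusters also kept an order, with the ratio higher in cluster 1 than in cluster 4 in each library. It was 1.35 against 1.18 in femur replicate 1 and 1.08 against 0.96 in mandible replicate 3. The sites overlapped in each cluster, and exact permutation p-values ran from 0.4 to 0.7 over the 9 clusters (adjusted p = 0.7 for each). Capture and counting can differ between the genes, so the ratio compares libraries and is not a ratio of transcripts.

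Within cluster 5 the calprotectin genes followed the reference labels. The labels too were given from the genes of these cells, so no test of levels was made between labels. Neutrophil-labelled cells held S100a8 at 63748, 60547 and 101610 CPM in the femur replicates and 74577, 90392 and 88962 CPM in the mandible replicates. In monocyte-labelled cells the level was 2788, 4432 and 12934 CPM in the femur replicates and 4090, 6533 and 5190 CPM in the mandible replicates, lower in 6 of 6 libraries, with the neutrophil-labelled mean 13.3-fold higher (7.86 to 22.9 by library). Macrophage-labelled cells held 1676 to 9360 CPM and DC-labelled cells 945.6 to 9042 CPM. S100a9 was 14.1-fold higher on average in neutrophil-labelled than in monocyte-labelled cells (8.04 to 23.7). Femur replicate 3, with the highest S100a8 level in cluster 5 (71465 CPM, against 23803 and 28712 CPM in the other femur replicates and 30004, 43727 and 46621 CPM in the mandible), was also the library in which the most cells of cluster 5, 49.7%, were labelled neutrophil, against 24.2% to 33.7% elsewhere.

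Nearly all monocyte-labelled cells, 99.9% ± 0.163 (SD, n = 6), held at least 1 UMI of S100a8, and 78.4% (65.5% to 98.2% by library) did after every cell was thinned to 1000 UMIs. B-labelled cells of cluster 6 (858 cells), which should lack the gene, gave 99.6% ± 1.07 and 82.5% (72.1% in the lowest library). Median depths were 8022 to 10258 UMIs for monocyte-labelled and 2840 to 5096 UMIs for B-labelled cells. The median share of a cell's UMIs that came from S100a8 and S100a9 was 0.230%, 0.399% and 0.732% in monocyte-labelled cells of the femur replicates and 0.237%, 0.210% and 0.322% in the mandible replicates. Among B-labelled cells of the same libraries it was 0.340%, 0.562% and 0.950% and 0.332%, 0.274% and 0.357%, higher in 6 of 6 libraries. In UMIs per cell the order was the other way, with medians of 23, 39 and 63 in the femur and 23, 17 and 31 in the mandible for the deeper monocyte-labelled cells, and 19, 29 and 40 and 14, 10 and 16 for B-labelled cells. The share in the typical monocyte-labelled cell was below that in cells that should lack the genes, whereas its UMIs of the pair were above. Neither order is read as expression or as its absence, which was not tested.

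A few cells carried much of the label's sum. Monocyte-labelled cells with over 10% of their UMIs from the pair were 10, 8 and 26 of the cells in the femur replicates and 6, 16 and 11 in the mandible replicates, and they held 50.7%, 38.7%, 65.5%, 56.5%, 70.1% and 50.6% of the pair's UMIs in that label. Without them the S100a8 level of monocyte-labelled cells was 1423, 2728 and 4933 CPM in the femur replicates and 1813, 2179 and 2636 CPM in the mandible replicates. In neutrophil-labelled cells the median share was 9.65% to 20.1%. Whether these few cells were captures of a pair of cells was not tested, and the sources used here do not state a doublet caller.

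**Figure D2:**
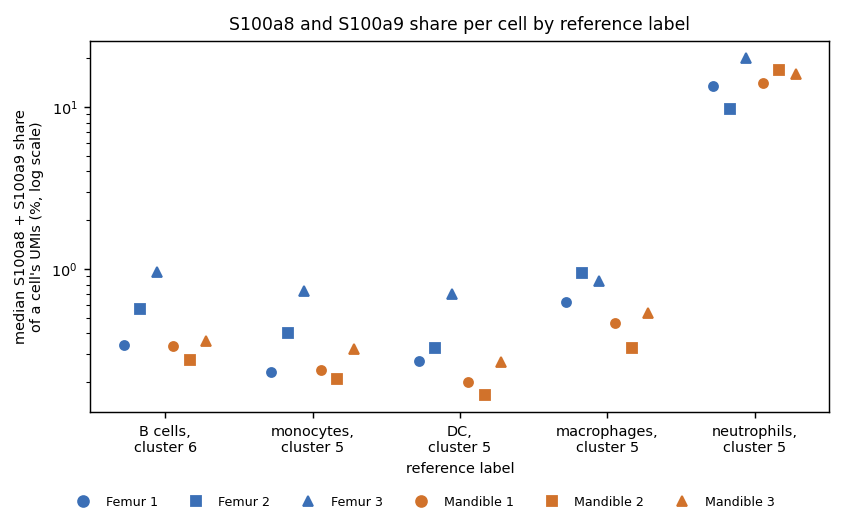
Median share of a cell's UMIs taken by S100a8 and S100a9 (%, log axis) by reference label; each point is 1 library (blue femur, orange mandible). Monocyte-labelled cells of cluster 5 (0.210% to 0.732%) lay below B-labelled cells of cluster 6 (0.274% to 0.950%) in each library, and neutrophil-labelled cells of cluster 5 lay between 9.65% and 20.1%. In UMIs per cell, not drawn, the order of monocyte- and B-labelled cells was the other way.

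S100a4, the myosin-binding member, marked the monocytes. Its level in cluster 5 was 1086, 1222 and 920.1 CPM in the femur replicates and 1256, 1116 and 980.7 CPM in the mandible replicates, and means over libraries in clusters 0 to 4 were 3.80 to 5.92 CPM. The cluster 5 mean was 208-fold that of cluster 0 (109 to 459 by library) and 75.4-fold that of cluster 6 (15.7 to 652). In cluster 6 femur replicate 3 held 58.4 CPM against 1.88 to 9.48 CPM in the other libraries, and 1 cell held 30 of the 66 UMIs. A UMI of S100a4 was found in 75.5% ± 8.12 of cluster 5 cells (51.3% ± 4.84 after thinning), against 2.34% to 5.45% of the cells on average in clusters 0 to 4 (0.386% to 0.788% after thinning) and 2.00% of B-labelled cells. In cluster 8, 122.6 CPM in femur replicate 1 made up most of the mean of 23.9 CPM, and 3 libraries held no UMI.

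Among the labels of cluster 5, S100a4 was highest in monocyte-labelled cells and hardly varied there, with 1871, 1876 and 1993 CPM in the femur replicates and 1845, 1965 and 1803 CPM in the mandible replicates. DC-labelled cells held 689 to 1481 CPM, neutrophil-labelled cells 369.7 to 635.0 CPM and macrophage-labelled cells 135.4 to 699.6 CPM. Monocyte-labelled cells were the highest of the 4 labels in 6 of 6 libraries, 1.66-fold above DC-labelled, 3.79-fold above neutrophil-labelled and 4.49-fold above macrophage-labelled cells on average. The neutrophil-labelled cells of cluster 5 also held the monocyte markers at 2059 to 2934 CPM, whereas the neutrophils of cluster 0 held them at 875.6 to 984.8 CPM.

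**Figure D3:**
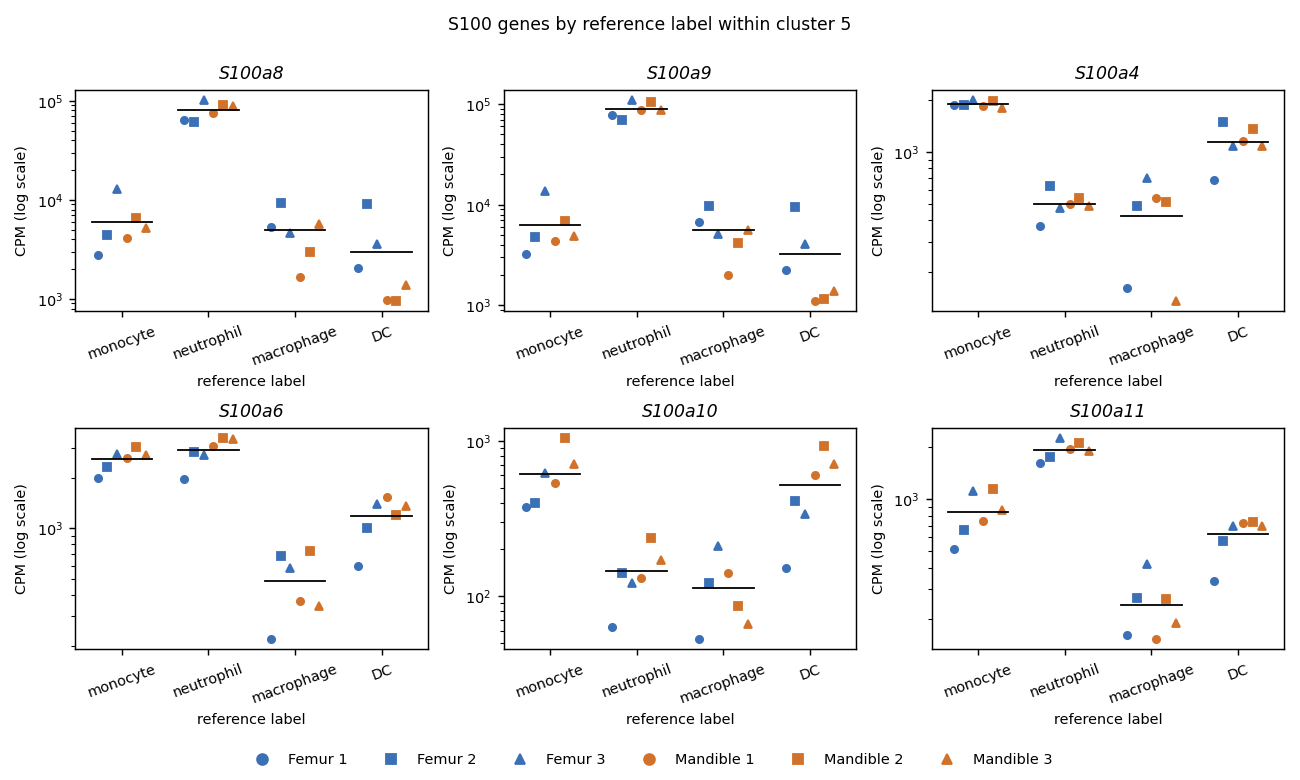
Level of each S100 gene (CPM, log axis) in the cells of cluster 5 by reference label; each point is 1 library (blue femur, orange mandible) and bars are means over 6 libraries. Neutrophil-labelled cells held the most S100a8, S100a9 and S100a11, monocyte-labelled cells the most S100a4 (1803 to 1993 CPM), and monocyte- and DC-labelled cells the most S100a10.

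S100a6 and S100a11 shared another outline in CPM. S100a6 averaged 8237 CPM in cluster 2, 7826 CPM in cluster 3 and 7298 CPM in cluster 1, which differed from each other by less than the SD of the libraries, then 2536 CPM in cluster 0 and 720.3 CPM in cluster 4. Cluster 2 exceeded cluster 4, which had the deepest cells, 11.4-fold on average and in 6 of 6 libraries (8.72 to 21.0). S100a11 averaged 5216 CPM in cluster 2, 5033 CPM in cluster 1, 4668 CPM in cluster 3, 2354 CPM in cluster 0 and 1209 CPM in cluster 4, a range of 4.32-fold from cluster 4 to cluster 2 (4.15 to 4.50 by library). The log2 levels of these 2 members had r = 0.92 over the 54 sums. In contrast, S100a8 was lower in cluster 1 than in cluster 4 in 6 of 6 libraries.

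In cluster 5 the S100a6 level was 1654, 2379 and 2631 CPM in the femur replicates and 2638, 2899 and 2803 CPM in the mandible replicates, within the SD of that of cluster 0. Monocyte-labelled cells (1995 to 3033 CPM) and neutrophil-labelled cells (1967 to 3428 CPM) held similar levels, and the second were higher in 4 of 6 libraries. Macrophage-labelled cells were lower, at 218.3 to 727.3 CPM. S100a11 was 2.30-fold higher in neutrophil-labelled than in monocyte-labelled cells, in 6 of 6 libraries (1.84 to 3.15), which set it apart from S100a6. For both genes B-labelled cells gave a lower level, 83.1 to 224.3 CPM for S100a6 and 228.6 to 323.2 CPM for S100a11.

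S100a10, the partner of annexin A2, was highest in clusters 5 and 6. Cluster 5 held 230.2, 275.6 and 276.3 CPM in the femur replicates and 365.2, 620.2 and 414.3 CPM in the mandible replicates, and cluster 6 averaged 273.8 ± 37.6 CPM (SD, n = 6), within the SD of cluster 5. Means in clusters 0 to 4 and 7 were 1.51 to 7.58 CPM. The level in B-labelled cells, 243.8 to 426.7 CPM with a UMI in 28.6% of thinned cells, stood beside 0.146% to 0.470% of thinned cells in clusters 0 to 4. Within cluster 5 monocyte-labelled cells (377 to 1038 CPM) and DC-labelled cells (150.8 to 918.9 CPM) were above neutrophil-labelled cells (63.6 to 237 CPM) in 6 of 6 libraries each. Anxa2, which encodes annexin A2, was instead spread over clusters, with means of 966.1 CPM in cluster 1, 578.7 CPM in cluster 5 and 688.8 CPM in monocyte-labelled cells.

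For each member, the genes most like it were those with the highest Pearson correlation of log2(CPM + 1) over the 54 sums, among 7186 genes with a mean of at least 10 CPM. S100a8 was most like Pglyrp1 (r = 0.98), a bactericidal protein of neutrophil granules, Wfdc21 (0.97) and Mapk13 (0.96), and S100a9 was most like Pglyrp1 (0.98), Wfdc21 (0.95) and Rflnb (0.95). S100a4 was most like Ccr2 (0.96), the chemokine receptor of monocytes, Arhgef37 (0.94) and Fn1 (0.93), which encodes fibronectin. S100a6 was most like Prr13 (0.98) and Ccdc180 (0.97), and S100a11 was most like Slpi (0.98), a secreted protease inhibitor, Cd300lf (0.97) and Mgam (0.96). S100a10 was most like Lgals1 (0.96), which encodes galectin-1, Plekho1 (0.95) and Capn2 (0.95). The points share libraries and totals, so these values carry no p.

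The sites were compared within each cluster, within the 4 labels of cluster 5 and over all cells, 14 comparisons in all, with the edgeR quasi-likelihood test on sums per library. No member passed a false discovery rate of 0.05 in any of them. Over all genes tested the percentage that passed was 0.0163 in cluster 0, 0.0842 in cluster 1, 0.0416 in cluster 2, 0.0108 in cluster 3, 0.0245 in cluster 4 and 0.0842 in cluster 7. It was 0.0968 in monocyte-labelled, 0.0603 in neutrophil-labelled, 0.0445 in macrophage-labelled and 0.0223 in DC-labelled cells of cluster 5, and 0.0 in clusters 5, 6 and 8 and over all cells. The absence of calls was thus shared with nearly all genes. At an unadjusted p under 0.05 there were 14 of 80 results of members, 9 of them for S100a10. Such a p was held by 1535 of 16381 genes over all cells, 406 of 9270 in cluster 3 and 1451 of 10687 in cluster 1. The share thus varied by comparison, and the 80 results share libraries. DESeq2 on the same sums called S100a10 over all cells, among 239 of 16381 genes, and S100a8 and S100a9 in DC-labelled cells, where they were 2 of the 3 called among 4484 genes. A replicate block by library number also called members, as given in the last section.

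S100a10 was the member with the largest and most frequent difference between sites. Over all cells it was 23.8, 47.1 and 24.2 CPM in the femur replicates and 49.5, 118.8 and 92.0 CPM in the mandible replicates, which did not overlap, as for 4.4% of all genes in that direction. The log2 fold change of mandible over femur was 1.44 ± 0.34 (SE; edgeR adjusted p = 0.35). Cluster 5 held 32456 of the 36043 UMIs of the gene, and its share of the kept cells was 10.4%, 12.3% and 6.33% in the femur replicates and 11.1%, 14.8% and 15.1% in the mandible replicates. The share of cluster 6, the other cluster with a high level, was 0.380%, 1.36% and 0.263% and 1.16%, 4.50% and 3.32%. The part of this cell mix in the difference over all cells was not tested. In cluster 5, where the sites also did not overlap (7.32% of all genes in that direction), it was 0.79 ± 0.24 (adjusted p = 0.61). In monocyte-labelled cells the levels were 377.0, 395.8 and 624.1 CPM in the femur replicates and 532.4, 1038 and 707.9 CPM in the mandible replicates, and they overlapped through femur replicate 3. The log2 fold change there was 0.68 ± 0.28, that in neutrophil-labelled cells was 0.74 ± 0.31 and that in DC-labelled cells was 1.23 ± 0.35 (adjusted p = 0.33, 0.97 and 0.44), and in DC-labelled cells no mandible library overlapped the femur, as for 8.21% of all genes in that direction. With 1 library left out at a time, the log2 fold change ran from 0.36 (without mandible replicate 2) to 0.97 (without femur replicate 3) in monocyte-labelled, from 0.46 (without femur replicate 1) to 0.94 (without femur replicate 3) in neutrophil-labelled and from 0.89 (without femur replicate 1) to 1.59 (without femur replicate 2) in DC-labelled cells. Over all cells it ran from 1.12 (without mandible replicate 2) to 1.75 (without femur replicate 2), and in cluster 5 from 0.51 (without mandible replicate 2) to 0.95 (without mandible replicate 1).

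Among the neutrophil clusters the S100a10 log2 fold change was 1.23 ± 0.54 in cluster 0, 1.23 ± 0.49 in cluster 1, 0.98 ± 0.34 in cluster 2, 0.59 ± 0.42 in cluster 3 and 2.51 ± 0.69 in cluster 4 (SE; edgeR adjusted p = 0.73, 0.32, 0.27, 1.0 and 0.26), at levels of 18.4 CPM or less. In cluster 4 it ran from 1.97 (without mandible replicate 3) to 3.43 (without femur replicate 2) with 1 library left out. The range was 0.84 (without mandible replicate 2) to 1.66 (without mandible replicate 1) in cluster 0, 0.93 (without femur replicate 1) to 1.63 (without mandible replicate 1) in cluster 1, 0.81 to 1.20 in cluster 2 and 0.38 (without mandible replicate 3) to 0.98 (without femur replicate 3) in cluster 3. Of these 5 clusters, the sites did not overlap in cluster 2 alone, with 0.902, 1.77 and 1.12 CPM in the femur and 2.27, 2.06 and 3.07 CPM in the mandible, as for 6.48% of all genes in that direction. The fold change was above 0 in 11 of the 12 comparisons in which the gene was tested, which share the same 6 libraries, the exception being -0.37 ± 0.43 in macrophage-labelled cells (0.21 without femur replicate 3). In clusters 0, 1, 3 and 4 the S100a10 level of mandible replicate 1 lay within the femur range. Marker sums of other cells are given beside these levels. In cluster 4 the 8 stromal and bone markers summed to 3.18 to 4.39 CPM in the femur and 7.16 to 10.3 CPM in the mandible, the 6 epithelial and enamel markers (Krt5 and Krt14 at 0) to 0.015 to 0.049 and 6.998 to 10.1 CPM, and the 7 B lineage markers to 2.30 to 10.6 and 9.95 to 22.5 CPM. The epithelial sum also separated the sites in cluster 0, at 0.022 to 0.035 and 12.02 to 26.4 CPM, and in cluster 2 (Krt5 and Epcam at 0), at 0 to 0.074 and 15.0 to 68.7 CPM. In cluster 1 the neutrophil, monocyte and epithelial sums, given below with S100a6, separated the sites too. All 8 stromal and bone markers were detected in cluster 5, and their sum was 71.7 to 130 CPM in the femur and 79.1 to 601 CPM in the mandible. The 6 epithelial and enamel markers summed to 0.149 to 0.550 CPM and 16.4 to 1320 CPM. In monocyte-labelled cells the stromal sum was 0.862 to 5.58 CPM and 3.71 to 14.9 CPM, and 3 of the 6 epithelial markers (Krt5, Krt14 and Epcam) were at 0. The part of these cells in the S100a10 difference was not tested. The 7 B lineage markers, whose cells also held S100a10, summed to 21.1 to 32.3 CPM in the femur and 37.9 to 78.2 CPM in the mandible in cluster 5, and to 5.25 to 30.9 and 213.1 to 431.0 CPM in DC-labelled cells. Their part was not tested either. Within B-labelled cells the S100a10 levels overlapped between sites, at 243.8 to 400.7 CPM and 321.7 to 426.7 CPM.

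**Figure D4:**
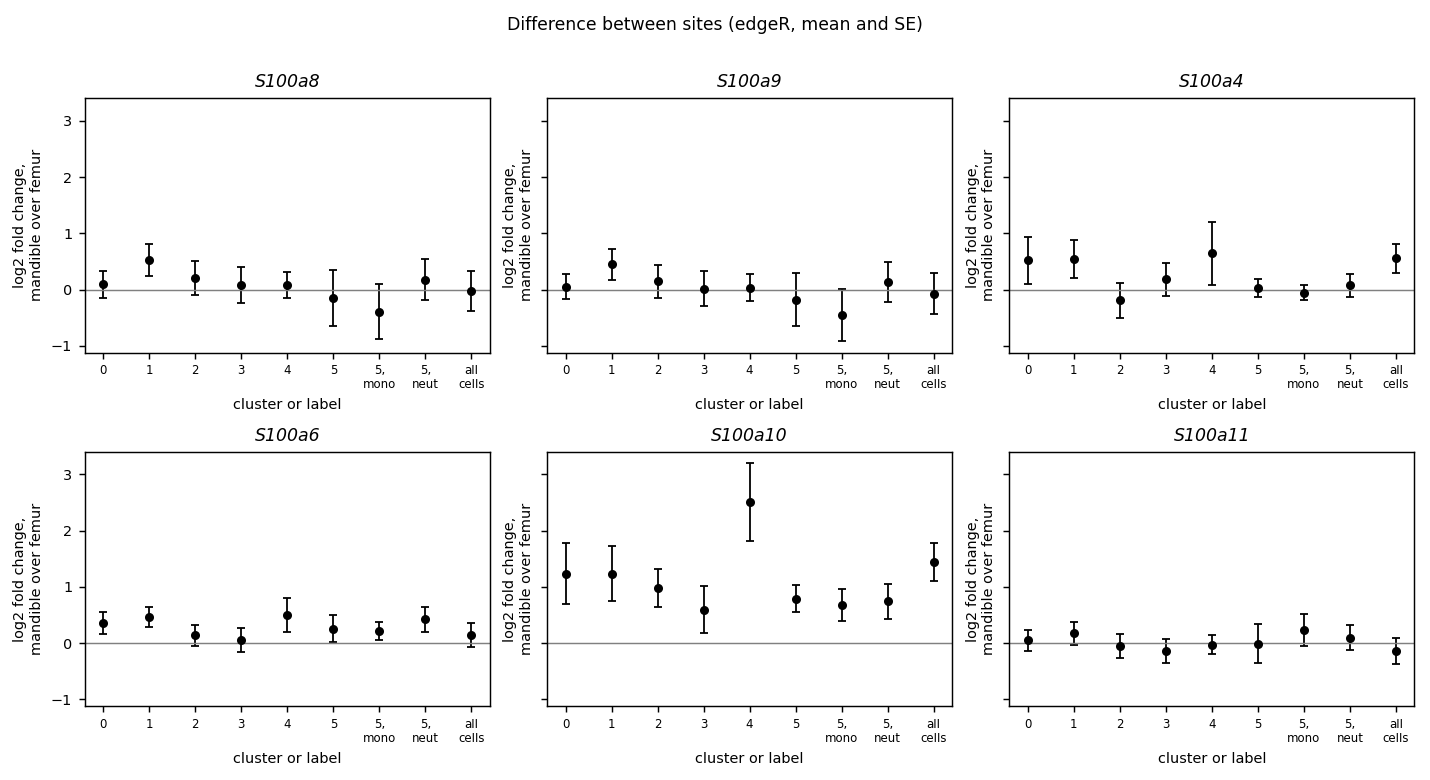
Log2 fold change of mandible over femur for each S100 gene by cluster, in monocyte- and neutrophil-labelled cells of cluster 5 (5, mono and 5, neut) and over all cells; points are edgeR estimates and bars their SE, from 3 libraries per site. S100a10 lay above 0 in each comparison drawn, up to 2.51 in cluster 4, and no point passed the false discovery rate of 0.05.

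S100a6 was higher in each mandible library than in each femur library of clusters 0, 1 and 5. In cluster 0 it was 1718, 2540 and 2508 CPM in the femur replicates and 2899, 2694 and 2855 CPM in the mandible replicates, and in cluster 1 it was 5997, 6397 and 6995 CPM and 7636, 8012 and 8755 CPM. Of all genes 2.47% and 4.88% separated in that direction in these clusters, and the log2 fold changes were 0.35 ± 0.20 and 0.47 ± 0.18 (SE; edgeR adjusted p = 0.85 and 0.30). In cluster 0 the 5 erythroid markers summed to 18.5 to 26.7 CPM in the femur and 50.2 to 216 CPM in the mandible, and the 6 epithelial and enamel markers to 0.022 to 0.035 and 12.02 to 26.4 CPM. In cluster 1 the summed level of 12 neutrophil markers was 24423 to 28908 CPM in the femur and 34745 to 43995 CPM in the mandible libraries, with 10 of the 12 higher in the mandible, that of 7 monocyte markers was 332 to 433 and 520 to 661 CPM, and that of 6 epithelial and enamel markers, of which Krt5 and Epcam had no UMI, was 0 to 0.057 and 12.3 to 48.6 CPM. Their part in the S100a6 levels was not tested. In neutrophil-labelled cells S100a6 was at 1967, 2831 and 2718 CPM in the femur replicates and 3097, 3428 and 3368 CPM in the mandible replicates, a separation that 3.34% of all genes showed in that direction. The log2 fold change was 0.42 ± 0.22 there and 0.26 ± 0.25 in cluster 5 as a whole (SE; edgeR adjusted p = 1.0 and 0.84), and in cluster 5 the highest femur and the lowest mandible library, 2631 and 2638 CPM, nearly touched. Without femur replicate 1, the lowest of the femur libraries, the log2 fold change was 0.16 in cluster 0, 0.046 in cluster 5 and 0.25 in neutrophil-labelled cells, and without femur replicate 3 it was 0.53, 0.50 and 0.58, the ends of its range over the libraries left out. In cluster 1 that range was 0.41 to 0.55. For S100a4 the log2 fold change in monocyte-labelled cells was -0.06 ± 0.13, and for S100a11 it was 0.23 ± 0.29 (adjusted p = 0.88 and 0.77).

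S100a8 and S100a9 differed between sites by the most in DC-labelled cells, by -2.25 ± 0.45 and -2.20 ± 0.43 on the log2 scale (SE; edgeR adjusted p = 0.39 for both). With 1 library left out the differences ran from -2.62 and -2.57 (without femur replicate 1) to -1.39 and -1.40 (without femur replicate 2). S100a8 was 2071, 9042 and 3551 CPM in the femur replicates and 980.4, 945.6 and 1386 CPM in the mandible replicates, and both genes were lower in each mandible library, as were 4.19% of all genes. These values rest on 16 to 40 cells per library. A single one of the 23 cells of femur replicate 2 held 84.4% of the pair's UMIs, and without it S100a8 was at 1453 CPM. With cells over 10% of UMIs from the pair left out, S100a8 was at 1886, 1453 and 3551 CPM in the femur replicates. The mandible replicates, at 980.4, 945.6 and 1386 CPM, had no such cell, so the sites still did not overlap. The median UMIs of the pair per cell, 28, 30 and 59.5 in the femur and 23.5, 11.5 and 31 in the mandible, overlapped. The median share of a cell's UMIs, 0.271%, 0.326% and 0.701% in the femur and 0.199%, 0.166% and 0.268% in the mandible, did not overlap but nearly touched. In each library this share was below that in B-labelled cells of cluster 6 (0.274% to 0.950%), which should lack the genes. The median UMIs per cell were above those of B-labelled cells in each library. Whether the typical DC-labelled cell expressed the pair was not tested. The 12 neutrophil markers summed to 1090 to 4336 CPM in the femur and 716.5 to 998.9 CPM in the mandible. The part of neutrophil RNA in this difference was not tested.

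Macrophage-labelled cells gave log2 fold changes of -0.99 ± 0.42 for S100a8 and -0.97 ± 0.39 for S100a9 (SE; edgeR adjusted p = 0.74 and 0.70). Cluster 5 as a whole gave -0.15 ± 0.50 and -0.18 ± 0.47 (edgeR adjusted p = 0.96 and 0.94). In monocyte-labelled cells the S100a8 log2 fold change was -0.39 ± 0.48 (adjusted p = 0.77), and it was 0.54 without femur replicate 3. The difference between 2 site effects was tested with limma on differences within libraries. The site effect of S100a8 in cluster 5 differed from that in cluster 0 by 0.00 ± 0.33 and that in monocyte-labelled from neutrophil-labelled cells by -0.32 ± 0.34. No member was called in either test, nor was any other gene (0.0% of the genes tested in both), and 0 members had an unadjusted p under 0.05.

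The other genes of the S100 pathway, 39 in 5 groups, also held no call between sites by edgeR in any of the 14 comparisons, with 38 of 413 results at an unadjusted p under 0.05 and 8 calls by DESeq2, which called 239 of 16381 genes over all cells and 337 of 11364 in monocyte-labelled cells. By edgeR over all cells, 1535 of 16381 genes had an unadjusted p under 0.05. Of the 10 further S100 genes, S100a13 (114.3 CPM on average over all cells) and S100a1 (21.2 CPM) were the most counted, S100z had no UMI, and the 6 that passed the filter over all cells had a median log2 fold change of 0.07, against 0.01 over all genes. Among 6 receptors of released S100 proteins the most counted were Bsg (59.4 CPM), which encodes basigin, and Tlr4 (38.7 CPM), and the median in cluster 5 was -0.17 against -0.01 over all genes. Of 9 annexins and other binding partners Anxa1 (2093 CPM) and Tpt1 (1167 CPM) led, with a median of 0.03 in cluster 5. The NADPH oxidase, which S100A8 and S100A9 help to activate, was led by Cybb (1547 CPM) and Cyba (1233 CPM), with a median of -0.01, and the 8 regulators of myeloid transcription by Cebpb (509.7 CPM) and Spi1 (490.4 CPM), with a median of 0.06.

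The cell cycle phase, called by the authors for each cell, was compared within clusters 0, 4 and 5 as G2M over G1, with the library as a block in edgeR. In cluster 5 the share of cells called G2M was 4.70%, 5.11% and 9.98% in the femur replicates and 7.67%, 20.3% and 13.2% in the mandible replicates. Here 3 of 6 members passed the false discovery rate of 0.05, 1 higher and 2 lower, against 53.6% of all genes tested (25.1% higher and 28.4% lower in G2M), so that the count itself is near the background. S100a10 rose from 189.1, 235.6 and 234.7 CPM in G1 to 545.2, 611.0 and 546.6 CPM in G2M in the femur replicates and from 270.3, 442.9 and 293.1 to 1003, 957.4 and 797.1 CPM in the mandible replicates. All 6 libraries moved the same way, and the log2 fold change was 1.42 ± 0.09 (SE; adjusted p = 1.2e-07). The part of the G2M shares in the S100a10 difference between sites was not tested.

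S100a6 fell by 0.49 ± 0.06 and S100a11 fell by 0.34 ± 0.06 on the log2 scale in cluster 5 (edgeR adjusted p = 2.5e-05 and 0.00063), in 6 of 6 libraries each. The log2 fold changes of S100a4, S100a8 and S100a9, -0.13 ± 0.08, -0.01 ± 0.19 and -0.08 ± 0.18, did not pass. In monocyte-labelled cells alone, where 53.2% of all genes passed, all 6 members did. S100a10 rose by 1.26 in log2 terms, from 321.2 to 799.9 CPM in G1 to 908.2 to 1307 CPM in G2M, S100a4 fell by 0.39 and S100a6 fell by 0.18. S100a11 turned to a rise of 0.36, and S100a8 and S100a9 rose by 1.29 and 1.14. Beside these last 2, cells with over 10% of UMIs from the pair were 0.416% to 3.02% of monocyte-labelled cells in G1 and 2.23% to 8.0% in G2M. The median share per cell went from 0.229%, 0.398% and 0.739% in G1 to 0.213%, 0.399% and 0.666% in G2M in the femur replicates. In the mandible replicates it went from 0.241%, 0.218% and 0.335% to 0.208%, 0.196% and 0.291%, so it fell in all but femur replicate 2. Without the few cells over 10% the S100a8 level was 1359, 2474 and 4655 CPM in G1 and 1913, 5509 and 6653 CPM in G2M in the femur replicates, and 1595, 1903 and 1809 CPM and 2840, 2457 and 3504 CPM in the mandible replicates. It was then higher in G2M in 6 of 6 libraries, with no test made. The cells left out were picked by their share of the same genes. With all cells included, S100a8 in mandible replicate 2 went from 5687 CPM in G1 to 5579 CPM in G2M.

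**Figure D5:**
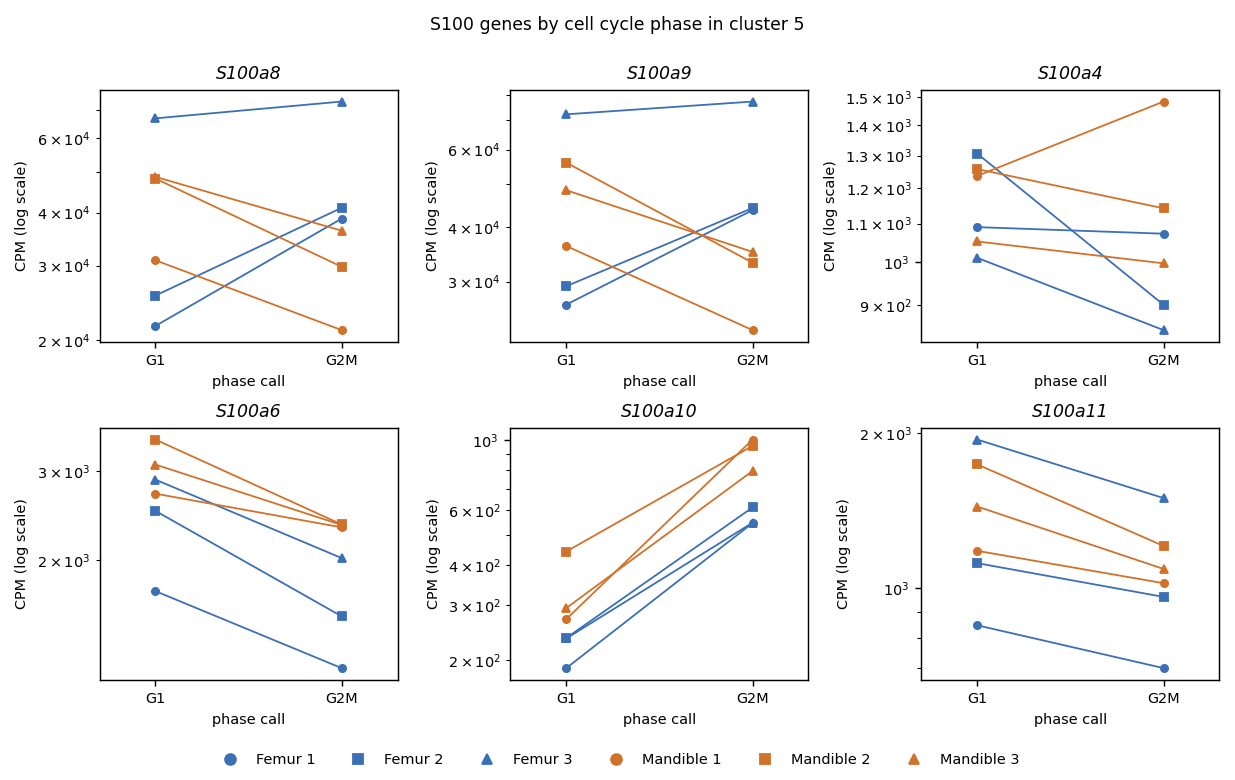
Level of each S100 gene (CPM, log axis) in G1 and G2M cells of cluster 5; each line joins the 2 sums of 1 library (blue femur, orange mandible). S100a10 rose and S100a6 and S100a11 fell in 6 of 6 libraries, while S100a8 and S100a9 were higher in G2M in the 3 femur libraries and lower in the 3 mandible libraries.

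For S100a8 and S100a9 the phases moved apart between the sites of cluster 5, which was tested only after these levels had been seen. S100a8 went from 21603, 25481 and 66769 CPM in G1 to 38721, 41063 and 73148 CPM in G2M in the femur replicates and from 30872, 48134 and 48582 to 21123, 29806 and 36259 CPM in the mandible replicates. The difference of the phase effects, mandible minus femur, was -1.15 ± 0.22 for S100a8 and -1.13 ± 0.21 for S100a9 (limma, SE; adjusted p = 0.25 for both), and 0.0% of all genes passed, with 990 of 9737 at an unadjusted p under 0.05. Beside it, the share of neutrophil-labelled cells went from 27.6%, 32.2% and 48.5% in G1 to 36.0%, 34.2% and 47.2% in G2M in the femur and from 24.5%, 34.5% and 34.8% to 19.2%, 19.7% and 26.5% in the mandible. The 12 neutrophil markers summed to 15956 to 37625 CPM in G1 and 28780 to 46954 CPM in G2M in the femur, and to 20542 to 27982 CPM and 14413 to 24593 CPM in the mandible. The part of this mix in the difference was not tested, and in monocyte-labelled cells alone the difference was -0.97 ± 0.42 for S100a8 (limma adjusted p = 0.82).

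In neutrophil clusters 0 and 4 the falls of S100a6 and S100a11 in G2M were larger. All 6 members passed in cluster 0, 2 higher and 4 lower in G2M, against 42.6% of all genes (20.2% higher and 22.4% lower). S100a6 went from 1762 to 2938 CPM in G1 to 712.9 to 1856 CPM in G2M and fell by 1.38 ± 0.13, and S100a11 fell by 0.97 ± 0.07 (SE, log2; edgeR adjusted p = 7.1e-10 and 2.0e-11). S100a9 and S100a8 fell by 0.33 ± 0.07 and 0.25 ± 0.07 (adjusted p = 0.00032 and 0.0046). Without TMM factors the median of all genes in cluster 0 lay at 0.25, with 3851 genes higher and 1493 lower in place of 2578 and 2860, and the fold changes of S100a8 and S100a9 were 0.01 and -0.07. The sparse members S100a4 and S100a10 rose by 1.20 ± 0.28 and 1.11 ± 0.44 (adjusted p = 0.00099 and 0.044) at levels of 38.3 CPM or less, and for S100a10 the change was 0.08 without mandible replicate 2. For S100a4 it ran from 0.70 to 1.47 with 1 library left out.

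In cluster 4, in which only femur replicate 3 and the mandible replicates had 10 or more G1 cells (10 to 28), 5 members passed, all 5 lower in G2M, against 15.1% of all genes (5.79% lower). Without TMM factors the genes that passed were 1295 higher and 446 lower in place of 974 and 609, with the median of all genes at 0.14 in place of 0.04. S100a6 went from 927.7 to 1841 CPM in G1 to 526.9 to 741.1 CPM in G2M in these 4 libraries and fell by 1.24 ± 0.10, and S100a11 fell by 0.56 ± 0.09 (SE, log2; edgeR adjusted p = 1.1e-12 and 5.4e-06). S100a9 and S100a8 fell by 0.22 ± 0.04 and 0.21 ± 0.04, and by 0.14 and 0.13 without TMM factors. S100a4 fell by 1.82 ± 0.56, but its change was 0.09 without femur replicate 3, and S100a10 did not pass (0.37 ± 0.58). Of the binding partners, Anxa2 also fell in clusters 0 and 4, by 0.57 and 0.58, and Ahnak, a large scaffold that binds S100A10 with annexin A2, rose in cluster 0 by 1.91. Ahnak was sparse there, with a mean of 2.31 ± 0.88 CPM (SD over 6 libraries) in cluster 0.

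The pathway lists were counted at the same false discovery rate of 0.05, which 20.2% of all genes passed as higher and 22.4% as lower in G2M in cluster 0, 9.26% and 5.79% in cluster 4, and 25.1% and 28.4% in cluster 5. Of the 9 binding partners 2 rose and 6 fell in cluster 0, 3 fell in cluster 4, and 1 rose and 3 fell in cluster 5. Of the 6 NADPH oxidase genes 5 fell in cluster 0, 3 fell in cluster 4, and 1 rose and 3 fell in cluster 5. Of the 6 receptors 2 fell in cluster 0, and 1 rose and 4 fell in cluster 5, while the 8 regulators split into 3 that rose and 2 that fell in cluster 0, 1 that rose in cluster 4, and 2 that rose and 4 that fell in cluster 5. Among the other S100 genes 1 of 4 tested fell in cluster 0, 1 of 2 fell in cluster 4 and 1 of 2 rose in cluster 5. The median log2 fold change in cluster 0 was -0.62 for the binding partners, -0.46 for the oxidase genes, 0.05 for the receptors and 0.02 for the regulators, against 0.0024 over all genes, and in cluster 5 it was -0.05, -0.14, -0.72 and -0.20 against -0.06.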

How the data were processed

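Single-cell libraries of CD11b+ cells from 3 femur and 3 mandible samples were analysed. The deposited matrices hold UMI counts per gene and barcode on mm10, with no normalization by the authors. The submitters' processing notes name Cell Ranger 7.0.1 and the matrix headers 7.1.0. The metadata deposited by the authors give clusters, phases, labels, counts per cell and the mitochondrial share in percent, after they kept cells with 600 to 6000 genes and up to 20% mitochondrial UMIs. A deposited marker table holds the authors' log2 fold changes and p-values of clusters, which were not used.

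Raw counts of kept cells were summed per library and cluster, label or phase (at least 10 cells) and tested with edgeR 4.0.16 (R 4.3.3; TMM factors, filterByExpr, Benjamini-Hochberg over all genes, false discovery rate 0.05), with DESeq2 1.42.0 as an alternative and limma 3.58.1 (prior count 2) for differences of effects. CPM are counts per 1000000 UMIs of a sum. The ratio and the share of UMIs were tested by exact permutation of all 20 assignments of libraries to sites, on both sides (scipy 1.17.1). The fits were tested on simulated data, with a limit on the share of false calls set for edgeR and limma but not for DESeq2. The 88 cells under 1000 UMIs were left out of thinned shares. The rule named the 6 members, every pathway gene that passed between sites, the 2 most counted genes of each pathway group, and the 3 genes most like each member, of which 1 is not reported here. Anxa2 and Ahnak outside these, and Itgam, were chosen after their values were seen. The members and lists were chosen with earlier results of these data known. Depth was 82962160 to 244946998 UMIs per library. Shares and intervals cover the spread between libraries only. Alternatives were other normalizations, filters, tests, blocks, cells and libraries left out.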

Additional observations from a re-analysis of the deposited data

Results flagged for a closer look

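The change of S100a8 from G1 to G2M in cluster 5 differed between the sites by -1.15 ± 0.22 on the log2 scale (mandible minus femur, SE; limma adjusted p = 0.25), with changes of 0.13 to 0.84 in the femur libraries and -0.69 to -0.42 in the mandible libraries. For S100a9 the difference was -1.13 ± 0.21 (limma adjusted p = 0.25), with 0.10 to 0.72 in the femur and -0.76 to -0.47 in the mandible. The rule flagged members whose femur libraries all moved opposite to all mandible libraries, so these directions are no separate support. How many of all genes met it was not counted. The test was added after the phase levels had been seen, and neither gene passed after adjustment over all genes. The corresponding difference in cluster 0 was -0.15 ± 0.21 for S100a8.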

How the results depend on the processing

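Counts of members called between sites, 0 in each comparison, were 1 with DESeq2 over all cells (239 of 16381 genes), and without the filter on low counts 1 in cluster 1 (of 577 called among 21828 genes), 1 in cluster 4 (456 of 22599), 1 in cluster 8 (44 of 14169), 1 in monocyte-labelled (657 of 20316) and 3 in DC-labelled cells (124 of 14605). In DC-labelled cells they were 2 with DESeq2 and 2 without femur replicate 1 (3 of 4732 genes; 0 to 2 members over the libraries left out). A replicate block by library number, in the 4 libraries whose numbers the sites share, called 1 member in cluster 4 (455 of 12395 genes), 2 in DC-labelled (7 of 3878) and 3 in monocyte-labelled cells (814 of 11501). The 3 were S100a10 (0.56, edgeR adjusted p = 0.0038), S100a8 (-0.58, adjusted p = 0.019) and S100a9 (-0.57, adjusted p = 0.018). Over the other alternatives their adjusted p-values reached 0.82, 0.96 and 0.92. The labels do not say what that number marks, so the main tests did not use this pairing. The deviations of same-numbered libraries had r = 0.09 and 0.20 in cluster 5, 0.44 and 0.38 in cluster 0, 0.50 and 0.29 in cluster 1 and -0.63 and -0.16 in cluster 8. Phase calls without the replicate block were 3 in cluster 0 (4782 of 10820 genes), 2 in cluster 4 (1435 of 9663) and 1 in cluster 5 (5921 of 11656). For S over G1 they were 2 in cluster 4 (1980 of 9674) and 6 in cluster 5 (6022 of 13473). For G2M over G1 in the monocyte-labelled cells of cluster 5 alone they were 6 (5867 of 11018). Signs turned between sites for S100a8 in cluster 5 with a replicate block by title number (0.074) and when libraries were left out (-0.46 to 0.65), and in monocyte-labelled cells (-0.77 to 0.54), for S100a11 in monocyte-labelled cells (-0.00059 to 0.64) and for S100a10 in macrophage-labelled cells (-0.80 to 0.21). Among phase changes, signs turned for S100a8 in cluster 0 without TMM factors (0.0084), for S100a10 in cluster 4 with DESeq2 (-0.20) and for S100a8 and S100a9 in cluster 5 as S over G1 (0.52 and 0.45) or in monocyte-labelled cells (1.29 and 1.14, and 0.36 for S100a11). S100a8 in cluster 5 was 0.0031 without the replicate block. With libraries left out, the phase change ran from -2.64 to 0.093 for S100a4 and from -0.61 to 1.64 for S100a10 in cluster 4, and from -0.16 to 0.14 for S100a8 and -0.23 to 0.065 for S100a9 in cluster 5. The cause was not tested for these. Of the recomputed log2 fold changes 449 kept their direction and their side of the threshold, 23 turned, 19 newly passed and 21 no longer passed. Leaving S100a8 and S100a9 out of the totals changed no call of a member. S100a4 and S100a10 rest on few UMIs in the neutrophil clusters.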
